A study of Arabidopsis thaliana with 24 samples.

Results

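The transcripts described here encode enzymes of the Calvin cycle and of photorespiration in Arabidopsis thaliana. They were chosen by a list of 39 loci, 22 of the Calvin cycle and 17 of photorespiration, and a locus was used where the deposited table of dimethyl sulfate (DMS) reactivity held it in all 4 conditions. Of these loci 21 were analysed, 10 of the Calvin cycle and 11 of photorespiration, with 46 transcripts of all those in the table, or 21 of 8956 loci when the lowest-numbered isoform stands for its locus. The other 18 loci, among them RBCS1B, RBCS2B, PRK, GAPA-1, GAPA-2, GAPB, SBPASE, CFBP1, FBA1, FBA2, TKL2, CP12-2, PGLP1A, PGLP1B, GOX1, HPR1, GLDH1 and GLDH3, were not analysed here.

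The plants were of the accession Col-0 and grew in hydroponic solution until they were 24 days old. Salt-treated roots and salt-treated shoots came from plants that then received 100 mM NaCl for 48 h, and control roots and control shoots from plants kept in the original solution. Each library pooled about 40 plants, and each condition rests on 3 libraries of tissue immersed in 0.75% DMS (about 75 mM) for 5 min and 3 of tissue in buffer alone, or 24 libraries in all. DMS enters living tissue and methylates adenines and cytosines that are not paired, and reverse transcription stops beside them, so that a higher reactivity is taken to stand for bases that are more open. Replicates had been merged in the deposited table, which gives a transcript 1 value in each condition. Their spread is therefore unknown, and no difference below carries an error or a p-value. Read depth is unknown, and reactivity is not a level of expression, so the labelled tissues could not be checked through marker expression. Of 15 root marker genes 7 were in the table.

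The Calvin cycle fixes carbon dioxide in the chloroplast. Rubisco joins it to ribulose bisphosphate, phosphoglycerate kinase and glyceraldehyde phosphate dehydrogenase reduce the product, and aldolase, transketolase and pentose phosphate enzymes rebuild the acceptor. Rubisco also takes oxygen, and the phosphoglycolate formed then is salvaged by photorespiration, which runs from the chloroplast through the peroxisome and the mitochondrion and back. Both pathways belong to green tissue, and many of the nuclear genes that encode them are expressed far more strongly in leaves than in roots. Expression of the members was not examined here.

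Mean reactivity, the average over a transcript on the authors' scale, was high for these transcripts. The median over the 21 loci was 0.364 in salt-treated roots, 0.376 in control roots, 0.368 in salt-treated shoots and 0.369 in control shoots. Over all 8956 loci the medians were 0.210, 0.198, 0.266 and 0.273 in the same order of conditions. The 10.0% of loci with the highest means held 12 of the 21 in salt-treated roots, 17 in control roots, and 15 in salt-treated as in control shoots. The standard deviation of reactivity between bases was nearly the same for all transcripts in control shoots, where percentiles 5 and 95 of all loci were 0.354 and 0.386 and the members between 0.335 and 0.374. In control roots the members spread from 0.174 to 1.22. In control shoots the mean therefore closely followed how evenly reactivity was spread (Spearman's rho of mean and Gini index -0.993 over 8956 loci, which share libraries and scale, and -0.945 over the 21 members), and differences from control shoots carry that property of the scale. In salt-treated shoots rho was -0.786 over all loci and -0.812 over the members, so differences from salt-treated shoots may carry part of it.

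**Figure D1:**
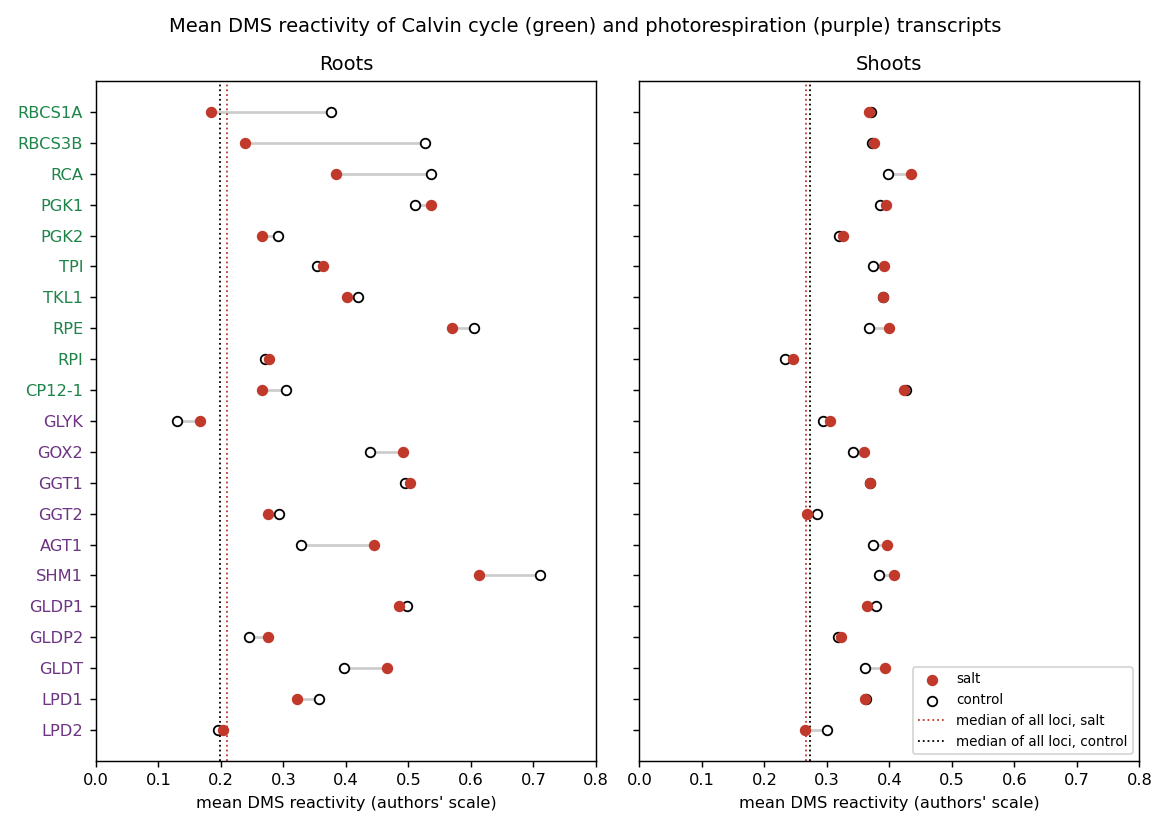
Mean DMS reactivity of the 21 loci (authors' scale, horizontal axis) in salt (red) and control (open) roots at the left and shoots at the right; each point is the authors' 1 value per condition, and dotted lines mark the medians of all 8956 loci. RBCS1A and RBCS3B lie far to the left of their control values in salt-treated roots, while in shoots salt and control points nearly coincide.

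The carboxylation step was represented by both small subunits of Rubisco in the table and by Rubisco activase. RBCS1A (AT1G67090) encodes a small subunit and had a mean reactivity of 0.184 in salt-treated roots and 0.376 in control roots, and of 0.367 in salt-treated shoots and 0.370 in control shoots. RBCS3B (AT5G38410), a second small subunit, had 0.239 in salt-treated roots and 0.526 in control roots, and 0.375 in salt-treated shoots and 0.372 in control shoots. Both had their lowest value of the 4 conditions in salt-treated roots. RCA (AT2G39730), the activase that frees Rubisco of inhibiting sugar phosphates, had 0.384 in salt-treated roots and 0.536 in control roots, and 0.434 in salt-treated shoots and 0.398 in control shoots. Among all loci of control roots these transcripts stood at percentiles 96.0, 99.4 and 99.5 for RBCS1A, RBCS3B and RCA, and among those of salt-treated roots at 26.8, 69.9 and 96.1.

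In the reduction step, with which TPI was grouped here although it carries out no reduction, the values with and without salt lay close together. PGK1 (AT3G12780), a chloroplast phosphoglycerate kinase, had 0.536 in salt-treated roots and 0.510 in control roots, and 0.394 in salt-treated shoots and 0.386 in control shoots. PGK2 (AT1G56190), the other chloroplast phosphoglycerate kinase, had 0.265 in salt-treated roots and 0.291 in control roots, and 0.326 in salt-treated shoots and 0.319 in control shoots. The plastid triose phosphate isomerase TPI (AT2G21170), which interconverts the triose phosphates, had 0.364 in salt-treated roots and 0.353 in control roots, and 0.392 in salt-treated shoots and 0.374 in control shoots. PGK1 was thus the more reactive kinase transcript in each condition, and by most in roots.

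The regeneration step held the most reactive Calvin cycle transcript of roots. RPE (AT5G61410), the epimerase that makes ribulose phosphate, had 0.569 in salt-treated roots and 0.604 in control roots, and 0.399 in salt-treated shoots and 0.367 in control shoots. TKL1 (AT3G60750), the main chloroplast transketolase, had 0.402 in salt-treated roots and 0.420 in control roots, and 0.390 both in salt-treated and in control shoots. RPI (AT3G04790), the plastid ribose phosphate isomerase, had 0.276 in salt-treated roots and 0.270 in control roots, and 0.246 in salt-treated shoots and 0.234 in control shoots. RPI was the member of lowest reactivity in shoots, at percentile 33.7 with salt and 13.6 without. CP12-1 (AT2G47400), the small protein that holds phosphoribulokinase and glyceraldehyde phosphate dehydrogenase in an inactive complex, was the most reactive member in control shoots. It had 0.266 in salt-treated roots and 0.304 in control roots, against 0.423 in salt-treated shoots and 0.427 in control shoots, the last at percentile 99.9.

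Of the chloroplast enzymes of photorespiration only GLYK (AT1G80380), the glycerate kinase that returns carbon to the Calvin cycle, was analysed. It had 0.167 in salt-treated roots and 0.130 in control roots, and 0.306 in salt-treated shoots and 0.294 in control shoots. GLYK was the lowest member in both root conditions, at percentile 14.3 with salt and 4.05 without.

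The peroxisomal enzymes oxidise glycolate and transfer amino groups. GOX2 (AT3G14415), a glycolate oxidase, had 0.492 in salt-treated roots and 0.439 in control roots, and 0.360 in salt-treated shoots and 0.341 in control shoots. AGT1 (AT2G13360), the serine:glyoxylate aminotransferase, had 0.445 in salt-treated roots and 0.328 in control roots, and 0.396 in salt-treated shoots and 0.373 in control shoots. The glutamate:glyoxylate aminotransferases differed from each other. GGT1 (AT1G23310), the main leaf form, had 0.503 in salt-treated roots and 0.495 in control roots, and 0.368 in salt-treated shoots and 0.369 in control shoots. GGT2 (AT1G70580) had 0.276 in salt-treated roots and 0.293 in control roots, and 0.268 in salt-treated shoots and 0.283 in control shoots.

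In the mitochondrion glycine decarboxylase and serine hydroxymethyltransferase turn glycine into serine. SHM1 (AT4G37930), that hydroxymethyltransferase, was the most reactive member in roots, with 0.612 in salt-treated roots and 0.711 in control roots, and 0.408 in salt-treated shoots and 0.383 in control shoots. It stood at percentile 99.9 in salt-treated roots and 99.98 in control roots. GLDP1 (AT4G33010), a P protein of glycine decarboxylase, had 0.485 in salt-treated roots and 0.499 in control roots, and 0.364 in salt-treated shoots and 0.378 in control shoots. GLDP2 (AT2G26080), the other P protein, had 0.275 in salt-treated roots and 0.246 in control roots, and 0.323 in salt-treated shoots and 0.318 in control shoots. GLDT (AT1G11860) encodes the T protein, an aminomethyltransferase, and had 0.465 in salt-treated roots and 0.398 in control roots, and 0.393 in salt-treated shoots and 0.361 in control shoots. The dihydrolipoyl dehydrogenases, which the pyruvate dehydrogenase complex also uses, were LPD1 (AT1G48030) and LPD2 (AT3G17240). LPD1 had 0.322 in salt-treated roots and 0.357 in control roots, and 0.361 in salt-treated shoots and 0.362 in control shoots. LPD2 had 0.203 in salt-treated roots and 0.195 in control roots, and 0.265 in salt-treated shoots and 0.300 in control shoots.

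The comparison of salt-treated with control roots asks whether salt altered the openness of these RNAs in the tissue that meets it first. The transcripts of the carboxylation step were the lowest members with salt, with SHM1 and CP12-1 next, and those of AGT1, GLYK and GLDT were the highest. RBCS3B had 0.454 times its control reactivity (log2 ratio of mean reactivity, without pseudocount, -1.14) and RBCS1A 0.490 times (-1.03). These were the 2 members lower by at least 1.5-fold, the size called large here, among 21, against 0.427% of all 8891 loci with a mean over both root conditions of at least 0.1. RCA followed at 0.716 times (-0.48). No member was higher by 1.5-fold, against 0.101% of loci. AGT1 came highest at 1.36 times (0.44), then GLYK at 1.28 times (0.36) and GLDT at 1.17 times (0.23), with GOX2 and GLDP2 both at 0.16.

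Below RCA in size the lower members were SHM1 at -0.22, CP12-1 at -0.19, LPD1 at -0.15 and PGK2 at -0.14, followed by GGT2 and RPE at -0.09, TKL1 at -0.06 and GLDP1 at -0.04. LPD2 stood at 0.05, TPI at 0.04, RPI at 0.03 and GGT1 at 0.02, and PGK1 at 0.07. In all 10 of 21 members had a ratio above 0, against 80.1% of all loci, and 11 below 0, against 19.9%. The median over members was -0.04 against 0.09 over all loci, and it was 0.03 over the 18 members other than RBCS1A, RBCS3B and RCA. The Gini index was higher with salt in 8 of 21 members, against 66.1% of loci. All 10 Calvin cycle transcripts lay below the median of all loci, with a median of -0.11. The 11 photorespiration transcripts were spread on both sides of it, 5 above and 6 below, with a median of 0.05. That the pathways differ was not tested.

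**Figure D2:**
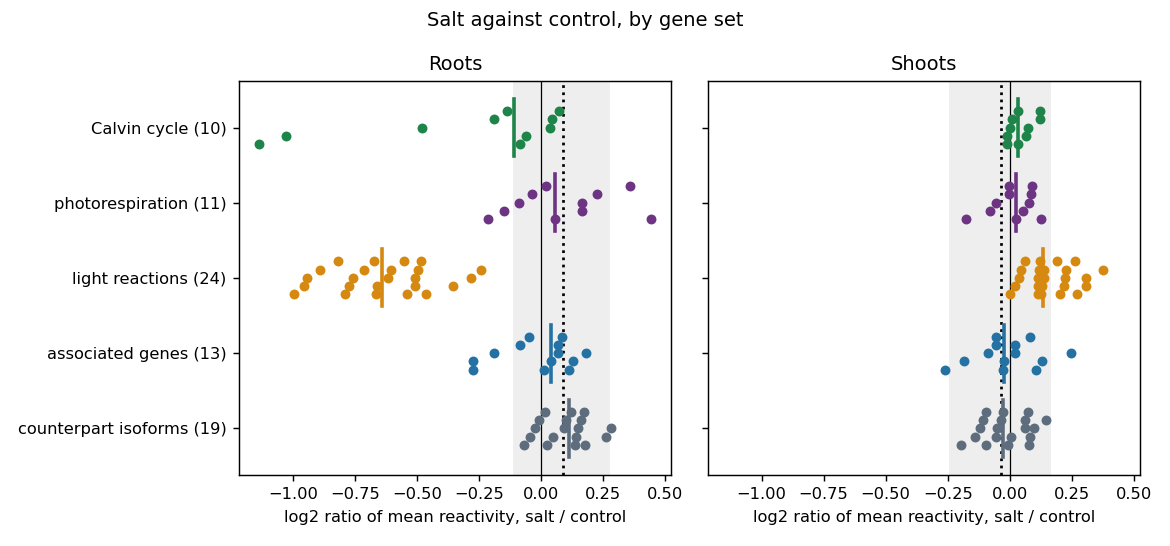
Log2 ratio of mean reactivity, salt over control, for each locus (points) in roots at the left and shoots at the right, with coloured bars for the median of a set; the grey band spans percentiles 5 to 95 of all loci and the dotted line marks their median. In roots the light reaction transcripts lie left of 0 as a group, while among Calvin cycle transcripts RBCS3B, RBCS1A and RCA do so and the others lie near 0; 18 of the 19 counterpart isoforms are drawn in roots.

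The lower root means of RBCS1A and RBCS3B went with lower peaks. The highest reactivity of any base in RBCS3B was 3.39 in salt-treated roots and 7 in control roots, the highest value in the table, which 0.268% of loci held in control roots. RBCS1A had 2.64 and 5.46 and RCA 3.68 and 5.84 in salt-treated and control roots. SHM1, also at 7 in control roots, had 3.88 in salt-treated roots. The highest value was exactly 7 in each of the 4 conditions, and 24 loci held it in control roots. It may thus be an upper bound of the scale, and peaks of 7 may be cut off. By contrast the peak of AGT1 was 4.24 in salt-treated roots and 2.71 in control roots, and that of GLYK 1.18 and 0.913. Standard deviations between bases differed in the same direction, for RCA 0.729 and 1.04 and for AGT1 0.718 and 0.481 in salt-treated and control roots.

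Carboxylation transcripts were also among the most uneven in roots. The Gini index measures unevenness, with 0 where all bases react alike and values near 1 where a few bases hold nearly all reactivity, and multiplying a transcript's values by a constant leaves it as it was. It was 0.856 in salt-treated roots and 0.806 in control roots for RBCS1A, 0.846 and 0.828 for RBCS3B, and 0.802 and 0.810 for RCA. With RPI, at 0.818 and 0.822, these were the 4 members at or above 0.8 in either root condition, against 2.93% of loci in salt-treated and 2.13% in control roots. Means of such transcripts rest on few bases. Of the 172 loci with a control root Gini index of at least 0.8 that entered the comparison, which include these 4 members and 13 light reaction genes, 8.72% were lower with salt by at least 1.5-fold, and their median log2 ratio was -0.02. The 15 loci lower by that size include RBCS1A and RBCS3B, and the light reaction genes LHCA1, LHCB1.1, LHCB6, PSBX, PSBY and PSAO. The share therefore rests in part on the genes it is set beside. The part of uneven reactivity in the ratios was not tested.

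The same comparison in shoots asks what salt did in the tissue where these enzymes work, and there differences were small. No member was higher or lower by at least 1.5-fold, against 0.0893% of all 8956 loci higher and 0.435% lower, and the members ranged from -0.18 to 0.12 on the log2 scale. GLDT had 1.09 times its control reactivity (0.12), as did RCA (0.12) and RPE (0.12), and SHM1 followed at 1.06 times (0.09). Next came AGT1 at 0.09, GOX2 at 0.08, and RPI and TPI at 0.07. LPD2 was lowest at 0.884 times (-0.18), ahead of GGT2 at -0.08, GLDP1 at -0.05, and RBCS1A and CP12-1, both at -0.01. RBCS3B stood at 0.01, a ratio of 1.01.

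In shoots 14 of 21 members had a ratio above 0, against 37.3% of loci, with a median of 0.03 over members and of -0.03 over all loci. Every one of the 10 Calvin cycle transcripts and 8 of the 11 photorespiration transcripts lay above the median of all loci. The Gini index was higher with salt in 19 of the 21 members, GOX2 and GGT2 being the exceptions, against 73.4% of loci. Members had a median Gini index of 0.573 in salt-treated shoots and 0.536 in control shoots.

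Set side by side, the salt effects of the tissues differed most for the carboxylation step. Subtracting the shoot value of the log2 salt ratio from the root value gave -1.15 for RBCS3B, -1.02 for RBCS1A and -0.60 for RCA. These 3 members differed by at least 1.5-fold with the lower ratio in root, against 0.461% of 8891 loci. SHM1 at -0.31, RPE at -0.21, CP12-1 at -0.18, PGK2 at -0.17 and LPD1 at -0.14 followed. On the other side AGT1 stood at 0.36, GLYK at 0.30, LPD2 at 0.23, GLDP2 at 0.14 and GLDT at 0.10, none of them past 1.5-fold, against 0.619% of loci. Of the Calvin cycle transcripts only PGK1, at 0.04, had the higher ratio in root, and of the photorespiration transcripts 8 of 11 did. On that side lay 9 of 21 members, against 82.0% of all loci, and 12 lay on the other, against 18.0%. The change of the Gini index with salt was lower in root than in shoot for 19 of 21 members, against 56.9% of loci. RCA passed the limit by little, with a ratio of 0.658, and with a pseudocount of 0.1 it did not, which left 2 members.

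The comparison of control roots with control shoots asks how the same RNAs were folded in the non-green and the green tissue. Most transcripts were less reactive in root, whereas 13 of the 21 members were more reactive there, against 7.44% of 8954 loci. The median log2 ratio of root over shoot was 0.11 over the members and -0.45 over all loci, a difference of 0.56. SHM1 had 1.86 times its shoot reactivity (0.89) and RPE 1.65 times (0.72), the 2 members higher by at least 1.5-fold, against 0.469% of loci. RBCS3B stood at 0.50, RCA at 0.43, GGT1 at 0.42, PGK1 and GLDP1 both at 0.40 and GOX2 at 0.37. RPI had 0.21, GLDT 0.14, TKL1 0.11, GGT2 0.05 and RBCS1A 0.02.

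The members lower in root spanned both pathways. GLYK had 0.442 times its shoot reactivity (-1.18) and LPD2 0.651 times (-0.62), and these 2 were lower by at least 1.5-fold, against 25.3% of loci. CP12-1, at -0.49, lay close to the median of all loci, and GLDP2 stood at -0.37, AGT1 at -0.19, PGK2 at -0.13, TPI at -0.08 and LPD1 at -0.02. Measured from the median of all loci, 10 members were higher and 1, GLYK, lower by at least 1.5-fold, against 4.84% and 2.01% of loci. Of the 627 loci with a mean of at least 0.35 in control shoots, which include 14 members and 22 light reaction genes, 32.5% had a ratio above 0, more than the share of all loci, and the median was -0.37. Of the 14 members 10 lay above 0, with a median of 0.27. The part of high shoot reactivity in the members' ratios was not tested.

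**Figure D3:**
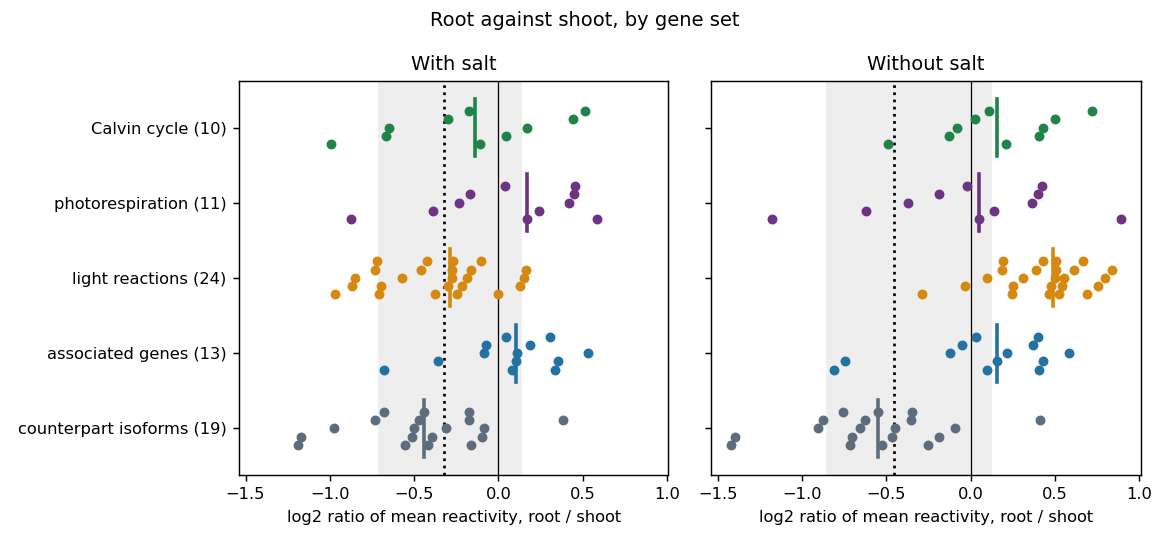
Log2 ratio of mean reactivity, root over shoot, for each locus (points) with salt at the left and without salt at the right, with coloured bars for the median of a set; the grey band spans percentiles 5 to 95 of all loci and the dotted line marks their median. Both enzyme pathways lie mostly to the right of the dotted line, and the counterpart isoforms lie around it.

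Under salt the order of the members differed mainly in the carboxylation step, and salt-treated roots enter both this ratio and the root salt ratio. Of the 21 members 11 were more reactive in salt-treated roots than in salt-treated shoots, against 9.10% of 8948 loci, with a median of 0.04 over members and -0.32 over all loci. SHM1 was the 1 member higher by 1.5-fold, against 0.246% of loci, at a ratio of 1.501 that only just reached the limit (0.59). RPE followed at 0.51, then GOX2 and GGT1 both at 0.45, PGK1 at 0.44, GLDP1 at 0.42 and GLDT at 0.24. AGT1 at 0.17 lay above 0 with salt, against -0.19 without. RBCS1A had 0.502 times its shoot value (-0.99), GLYK 0.546 times (-0.87), CP12-1 0.629 times (-0.67) and RBCS3B 0.639 times (-0.65), the 4 members lower by 1.5-fold, against 9.51% of loci. RCA stood at -0.18. When the standard deviation between bases replaced the mean, RBCS1A and RBCS3B were at 0.052 and 0.41, on the other side of 0.

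Relative to the median of all loci under salt, 6 members were higher and RBCS1A was lower by at least 1.5-fold, against 2.82% and 1.65% of loci. As a group the photorespiration transcripts had a median of 0.17 with salt and 0.05 without, and the Calvin cycle transcripts -0.14 with salt and 0.16 without.

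Reactivity was less evenly spread along these transcripts in roots than in shoots. The Gini index was higher in control roots than in control shoots for 20 of 21 members, against 42.0% of loci, and higher in salt-treated roots than in salt-treated shoots for 18, against 38.4%. The medians over members were 0.706 in salt-treated roots, 0.719 in control roots, 0.573 in salt-treated shoots and 0.536 in control shoots, while those over all loci were 0.687, 0.678, 0.690 and 0.679. RCA had 0.810 in control roots and 0.494 in control shoots, the greatest difference among members. RBCS3B had 0.828 and 0.534, CP12-1 0.751 and 0.473, and SHM1 0.771 and 0.511 in control roots and control shoots. At the other end stood LPD2, the exception, with 0.621 and 0.636, GLDP2 with 0.607 and 0.601, and GLYK with 0.672 and 0.632. The same held for other genes of photosynthesis, with a higher Gini index in control roots for 24 of 24 light reaction genes, at a median difference of 0.287 against 0.157 for the members, and for 12 of 13 genes that serve the pathways. Among counterpart isoforms, related to the members but not among them, it was higher for 8 of 19. The root marker genes went the other way, with a higher Gini index in control roots for 1 of 7 and a median difference of -0.111. With salt it was again higher in root for 1 of 7, at a median difference of -0.151. Without salt the spread was less even in root for members with a higher root mean, and also for those with a lower one except LPD2. CP12-1, for example, had a log2 ratio of root over shoot of -0.49. In control shoots the Gini index closely followed the mean, and differences from control shoots carry that property of the scale. Differences from salt-treated shoots may carry part of it. Spearman's rho there was -0.786 over all loci and -0.812 over members, against -0.279 and 0.069 in salt-treated roots. Members highest in root, such as SHM1 and RPE, had peaks of 7 (the highest value in the table) and 4.24 in control roots and 1.74 and 1.66 in control shoots.

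**Figure D4:**
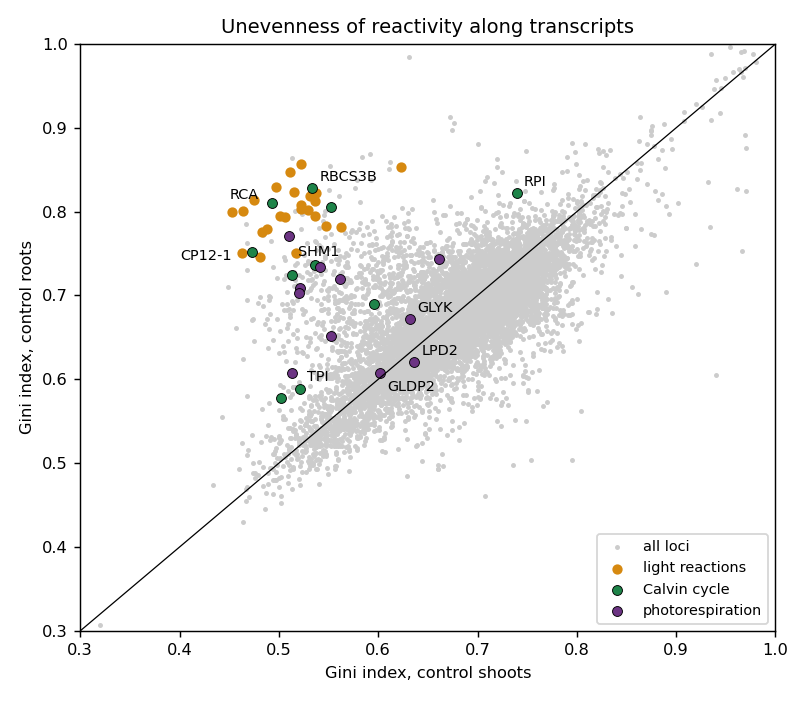
Gini index of reactivity in control roots (vertical axis) against control shoots (horizontal axis) for all 8956 loci (grey), light reaction transcripts (orange), Calvin cycle (green) and photorespiration (purple) transcripts; the line marks equal values. All members but LPD2 lie above the line, with RBCS3B, RCA and CP12-1 well above it and TPI, GLDP2 and GLYK close to the bulk of loci.

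Isoforms of a locus mostly had like ratios. For 16 of the 21 loci 2 to 4 isoforms were in the table, which share most of their sequence and so share reads. In the root salt comparison the isoforms of every such locus lay on 1 side of 0, and the median range of the log2 ratio within a locus was 0.03. All 3 isoforms of RBCS3B lay between -1.14 and -1.07 and both of RBCS1A between -1.03 and -0.94. The greatest range in the shoot salt comparison, 0.21, was that of LPD2. Its isoform 2 had 0.131 in salt-treated roots and 0.129 in control roots, and 0.178 in salt-treated shoots and 0.174 in control shoots, with a shoot ratio of 0.04 where isoform 1 had -0.18. In the tissue difference of the salt effect 3 of the 16 loci, TPI, GGT2 and LPD2, had isoforms on both sides of 0, and LPD2 stood at 0.23 in isoform 1 and at -0.02 in isoform 2. GLYK isoforms in control roots ranged from 0.130 to 0.150.

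**Figure D5:**
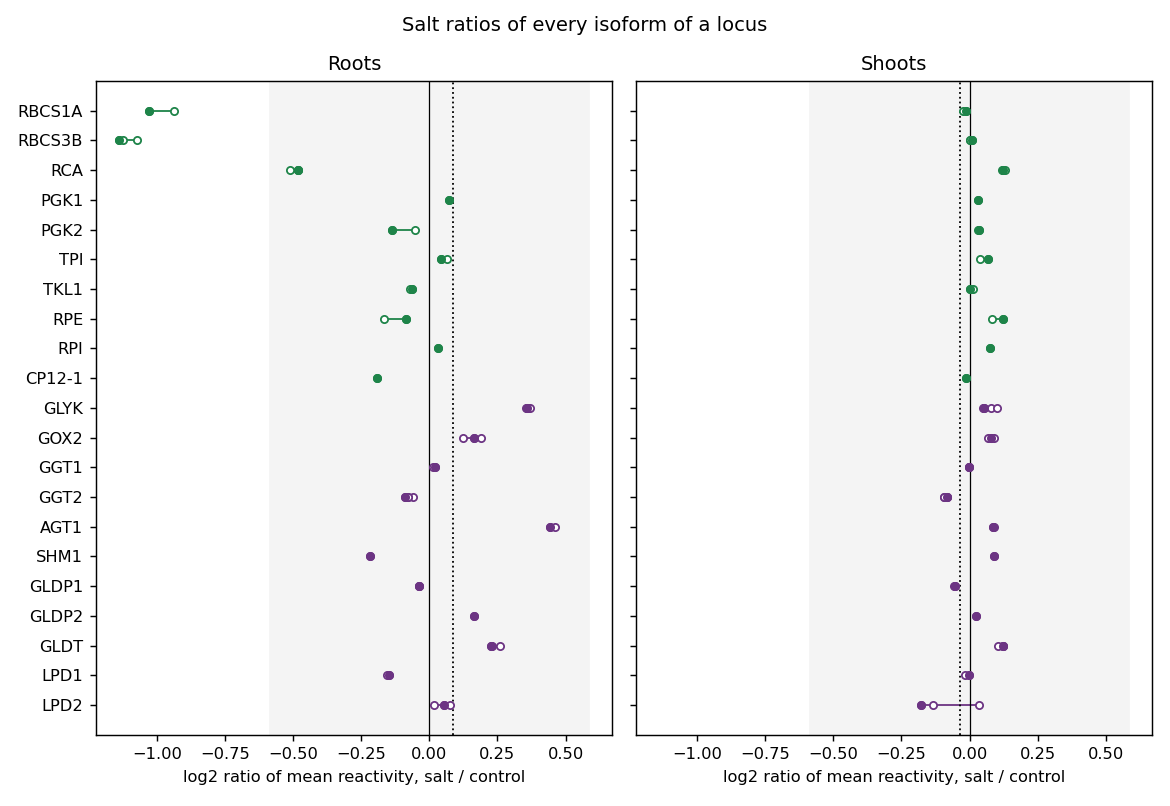
Log2 ratio of mean reactivity, salt over control, of every isoform in the table (open points) and of the lowest-numbered isoform (filled) for each locus, in roots at the left and shoots at the right; the grey band marks ratios under 1.5-fold and the dotted line the median of all loci. Isoforms of a locus cluster together, and LPD2 in shoots shows the widest range.

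For 5 pairs of related genes both copies were analysed, and in all 5 the copies stood apart more in roots than in shoots. The means of all 21 members also spanned less in control shoots, from 0.234 to 0.427, than in control roots, from 0.130 to 0.711. Whether related pairs differ in this from other pairs of transcripts was not tested. PGK2 had 0.495 times the mean reactivity of PGK1 in salt-treated roots and 0.571 times in control roots, against 0.828 times in salt-treated shoots and 0.827 times in control shoots. GLDP2 stood to GLDP1 at 0.566 and 0.493 in salt-treated and control roots, and at 0.887 and 0.840 in salt-treated and control shoots. GGT2 stood to GGT1 at 0.548 and 0.592 in roots and at 0.728 and 0.768 in shoots, and LPD2 to LPD1 at 0.630 and 0.548 in roots and at 0.734 and 0.829 in shoots, salt before control in each tissue. The Rubisco pair was alike in shoots, with RBCS3B at 1.02 times RBCS1A with salt and 1.01 times without, and differed in roots at 1.299 times with salt and 1.401 times without. RBCS3B lies next to RBCS2B, and GOX2 next to GOX1, in the TAIR10.1 annotation. Near-identical copies can share reads, which makes the values of RBCS and GOX2 uncertain to that extent.

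The enzymes were then set beside other genes of photosynthesis and carbon metabolism from lists chosen, like the members, with earlier results of these data known. Of 48 nuclear genes of the light reactions 24 were analysed. All 24 were less reactive in salt-treated than in control roots, against 19.9% of all loci. Their median was -0.64, against 0.09 over all loci, and 14 were lower by 1.5-fold, against 0.427%. Among the 14 are related copies, LHCB1.1, LHCB1.2, LHCB1.3 and LHCB1.5, and PSAD1 and PSAD2. Related copies may share reads, so these genes may not be separate cases. The 24 genes ranged from LHCB1.5, a light-harvesting protein, at -0.997 to PSAN, a photosystem I subunit, at -0.24. RBCS3B, RBCS1A and RCA lay in or below that range, and the other 18 enzyme transcripts lay above it. In shoots the 24 genes had a median salt ratio of 0.13, from FNR1 at 0.002 to LHCB1.5 at 0.38, and their tissue differences of the salt effect ran from LHCB1.5 at -1.37 to LHCB4.1 at -0.37. Between roots and shoots their median was 0.49 without salt, from PSBR at -0.29 to ATPD at 0.84, and -0.29 with salt, from PSAG at -0.97 to ATPD at 0.16.

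Genes that serve the pathways, such as transporters, catalases and chaperonins, were represented by 13 of 21 listed. Their median was 0.04 for salt in roots, with the chaperonin subunit CPN60A1 highest at 0.18, and -0.02 for salt in shoots, from PMDH1 at -0.26 to CPN60A1 at 0.25. Between control roots and control shoots it was 0.15, with the catalase CAT2 lowest at -0.81, and with salt 0.10, from CAT2 at -0.68 to RBCX2 at 0.53. The salt effects differed between tissues by -0.30 for the triose phosphate translocator TPT and by 0.39 for PMDH1.

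Counterpart isoforms, related to the members but not among them, lay nearer to the bulk of transcripts. Of 26 listed 19 were analysed, 18 of them with a mean of at least 0.1 in roots. Between control roots and control shoots their median was -0.55, with 1 of 19 above 0, the cytosolic fructose bisphosphatase cFBP at 0.41, and GAPCP1, a plastid glycolytic dehydrogenase, lowest at -1.42. The cytosolic PGK3 stood at -0.55 and the cytosolic isomerase cTPI at -0.52, where PGK1 had 0.40 and TPI -0.08. With salt their median between tissues was -0.44, from GLDH2 at -1.19 to cFBP at 0.38. For salt in roots it was 0.11, from PGK3 at -0.07 to GLDH2 at 0.28, for salt in shoots -0.03, from SHM4 at -0.20 to cFBP at 0.14, and the difference between the tissues ran from CP12-3 at -0.10 to cRPE2 at 0.30. The 7 root marker genes were all less reactive in root, as were 8288 of 8954 loci without salt and 8134 of 8948 with salt. Medians of these 7 genes were -1.32 without salt and -1.05 with salt, against -0.45 and -0.32 over all loci. The median salt ratio of the markers was 0.07 in roots, over 6 genes, and -0.02 in shoots, and that of the tissue difference was 0.01. Differences between the lists and the enzymes were not tested.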

How the data were processed

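Per the labels' protocols, poly(A)-selected RNA was reverse transcribed with random hexamers into Structure-seq2 libraries. The deposited table holds, per the file headers, 3 scores of DMS reactivity per transcript and condition (highest, mean and standard deviation between bases) and the Gini index, a fraction. The authors combined the replicates. No source used here gives the aligner, build, normalization or coverage filter. Depth is unknown and gene coordinates are left out.

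The members and lists were chosen with earlier results of these data known. The lowest-numbered isoform stood for a locus. Log2 ratios of mean reactivity used no pseudocount and a minimum of 0.1 for the mean over both conditions; all 21 members passed. With 1 value per condition no test was possible, and 1.5-fold was called large. All members were named, and of the light reaction, associated and counterpart lists the highest and lowest gene per comparison. One listed gene that this rule would name is not reported here. Symbols were given by locus, and all 39 loci were in the TAIR10.1 table. The code was tested on simulated data. Python 3.11.15, pandas 2.3.3 and numpy 2.4.6 were used. In judging alternatives a median counted as moved by 0.1 or more on the log2 scale (0.02 for the Gini index) and a count by more than 1.5 times.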

Additional observations from a re-analysis of the deposited data

Results flagged for a closer look

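Salt ratios of RBCS3B and RCA lay on opposite sides of 0 in the tissues and differed by at least 1.5-fold. The root minus shoot log2 ratio was -1.15 for RBCS3B and -0.60 for RCA. In shoots the salt ratio of RBCS3B was 0.01, close to no change, and that of RCA 0.12. RBCS1A, with a root minus shoot value of -1.02, was not flagged. Its shoot ratio of -0.01 lay on the same side of 0 as its root ratio. Each tissue gave 1 combined value per condition, so these differences were not tested.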

How the results depend on the processing

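No paired analysis was possible because the table holds 1 combined value per condition, and no replicate could be left out for the same reason. Settings are given as planned, with the count of members past the size limit as higher and lower. With all isoforms, 46 transcripts, 5 were lower for salt in root, 6 lower for root against shoot without salt, 10 lower with salt and 8 lower for the tissue difference, and the median Gini difference of root against shoot was 0.103 without salt and 0.0682 with salt. Among transcripts of all loci the lower counts were 46 of 12892, 3306 of 12976, 1203 of 12970 and 55 of 12892, in that order. With a pseudocount of 0.1, root against shoot gave 1 lower without salt, and 0 higher and 2 lower with salt, and the tissue difference 2 lower, without RCA. Over all loci these were 377 of 8954, 5 and 184 of 8948, and 28 of 8891. Centring on all loci gave medians of 0.56 and 0.36 for root against shoot without and with salt, with 10 higher and 1 lower without salt and 6 higher and 1 lower with salt, and -0.15 for the tissue difference. The standard deviation in place of the mean gave medians of 0.14 for salt in shoot, 0.49 and 0.41 for root against shoot without and with salt and -0.14 for the tissue difference, with 10 higher without salt and 8 higher and 1 lower with salt. Over all loci 385 of 8954 were higher without salt, and 353 higher and 1685 lower of 8948 with salt. RBCS1A and RBCS3B were then reversed with salt, at 0.052 and 0.41. At the lower size limit tried 2 were higher for salt in root, 8 higher and 4 lower for root against shoot without salt, 6 higher with salt, and 1 higher for the tissue difference. At 2-fold root against shoot gave 0 higher and 1 lower without salt and 0 and 0 with salt, while RBCS1A and RBCS3B were still lower in salt-treated roots. Over all loci these were 5 and 214 of 8954 without salt and 4 and 103 of 8948 with salt. In salt-treated roots 5 of 8891 loci were lower by 2-fold. Counts over all loci moved too. Those lower for salt in shoot were 39, or 13 at a minimum of 0.2, 59 with all isoforms and 5 with a pseudocount of 0.1. Those lower in root without salt were 2263, or 377 with that pseudocount and 180 after centring. Leaving out RBCS1A, RBCS3B and RCA, a setting chosen after seeing the data, left medians of 0.03 for salt in root and 0.004 for the tissue difference, above 0 where all 21 members gave -0.04 and -0.02, though both moved by less than 0.1. With all isoforms the median also changed sign for root against shoot with salt, at -0.03, and for the tissue difference, at 0.01. Of the recomputed medians and counts of the members, 140 stayed within the limits and 32 did not. The 140 include settings that could not move any member result. Dropping the minimum of 0.1 added no member, because all had passed it. Requiring a Gini index under 0.9 removed none, the highest being 0.856. Counting identical members once removed none either, because none were identical. The 140 are therefore no measure of robustness. The bands of all loci by Gini index and by shoot reactivity were also chosen after seeing the data. The unknown depth limits every value.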
